A study of Bos taurus with 6 samples.

Results

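The Hippo pathway genes examined here were 10 listed by symbol, namely YAP1, WWTR1, TEAD1, TEAD4, LATS1, LATS2, WWC2, CTGF, CYR61 and AMOTL2. Members were the rows of the deposited table whose gene symbol equals a listed name. By this rule 9 of the 10 genes were found, each with 1 transcript cluster, out of 26773 transcript clusters in all. No row carried the symbol YAP1, so YAP1 was not analysed here. A row with the symbol TAZ names tafazzin, a mitochondrial enzyme, and was not used for WWTR1, whose protein is also called TAZ.

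RNA of primary bovine granulosa cells (GC), the steroid-producing cells that line the ovarian follicle, was hybridized to the Affymetrix Bovine Gene ST Array. The design sets 3 cultures plated at normal density against 3 plated at high density, 1 array per culture. Cells of both groups were kept without serum for 9 days on collagen-coated plates in medium with insulin, FSH, IGF-1 and androstenedione, and had been frozen as pools aspirated from small to medium follicles of many abattoir ovaries, with the cycle stage of the cows not known. All cultures therefore shared these additions and differed in the number of cells plated. It is not given in the sources used here whether cultures of both densities came from the same pools, so p-values measure the spread between these cultures only.

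The Hippo pathway restrains growth where cells are crowded. Its core is a chain of kinases in which STK3 and STK4, with the scaffold SAV1, activate LATS1 and LATS2, which with MOB1 phosphorylate the cofactors YAP (YAP1) and TAZ (WWTR1) and keep them out of the nucleus. Unphosphorylated YAP and TAZ enter the nucleus, bind the TEAD factors on DNA and switch on genes such as CTGF, CYR61, ANKRD1 and AMOTL2. Much of this control is exerted on the proteins, by phosphorylation and location, neither of which an RNA array measures. In the ovary the pathway is known for its part in follicle growth.

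The values are log2 signals made by the authors with the RMA procedure, and differences are log2 changes, high minus normal density, with their standard error (SE) from limma. A transcript cluster is termed called where its fold change (FC) exceeded 1.5 in size and both p and the Benjamini-Hochberg adjusted p (FDR) over all transcript clusters were below 0.05. Array medians lay between 4.34 and 4.43. The 95th percentile of 82 reporter control rows, 4.62, was taken as the background level. All 9 members had group means above it, between 5.02 and 10.73. Over the whole table the median SD was 0.08 at normal and 0.13 at high density, and over the 9 members it was 0.05 and 0.07. The granulosa cell markers CYP11A1, NR5A2, FOXL2, INHA and FSHR were above the background level at both densities. CYP19A1, the enzyme that makes estradiol, was above it only at normal density. Of the 10 granulosa cell markers 5 were called down at high density (FSHR, CYP19A1, INHA, INHBA and FOXL2) and 1 up (HSD17B1), and their part in the results for Hippo pathway genes was not tested. The summed linear signal of the 10 was between 4561 and 5036 at normal density and between 4059 and 4196 at high density. That of the 4 markers not called was higher at high density, between 3281 and 3390, than at normal density, between 2747 and 2799. These 4 did not move together, as CYP11A1 and NR5A2 had log2 changes of 0.26 and 0.41 and AMH and NR5A1 of −0.18 and −0.28. The sum is weighted toward CYP11A1, whose means of 10.91 and 11.16 were the highest of the 4.

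A cofactor, a scaffold and a target gene rose at high density and the others did not pass the test. WWTR1, WWC2 and CTGF were the 3 genes called up, with FC of 1.73, 1.52 and 3.00. No member was called down. Over all transcript clusters 7.49% were called, 3.97% up and 3.51% down. Tested over the 13077 with a group mean above the background level, as all members have, it was 13.0%, with 6.97% up and 5.99% down. At any FC 3 members passed the FDR, beside 19.1% of all transcript clusters, and in 6 of the 9 the groups did not overlap, beside 37.3%. The 6 members that were not called had log2 changes between −0.16 and 0.03. The median log2 change of the 9 members was −0.06, beside 0.02 over all transcript clusters. At an unadjusted p below 0.05, limma found 0 lower members and the methods' t-test (equal, for a pair of groups, to their analysis of variance) found 2, LATS2 and CYR61, neither with an FC above 1.5.

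**Figure D1:**
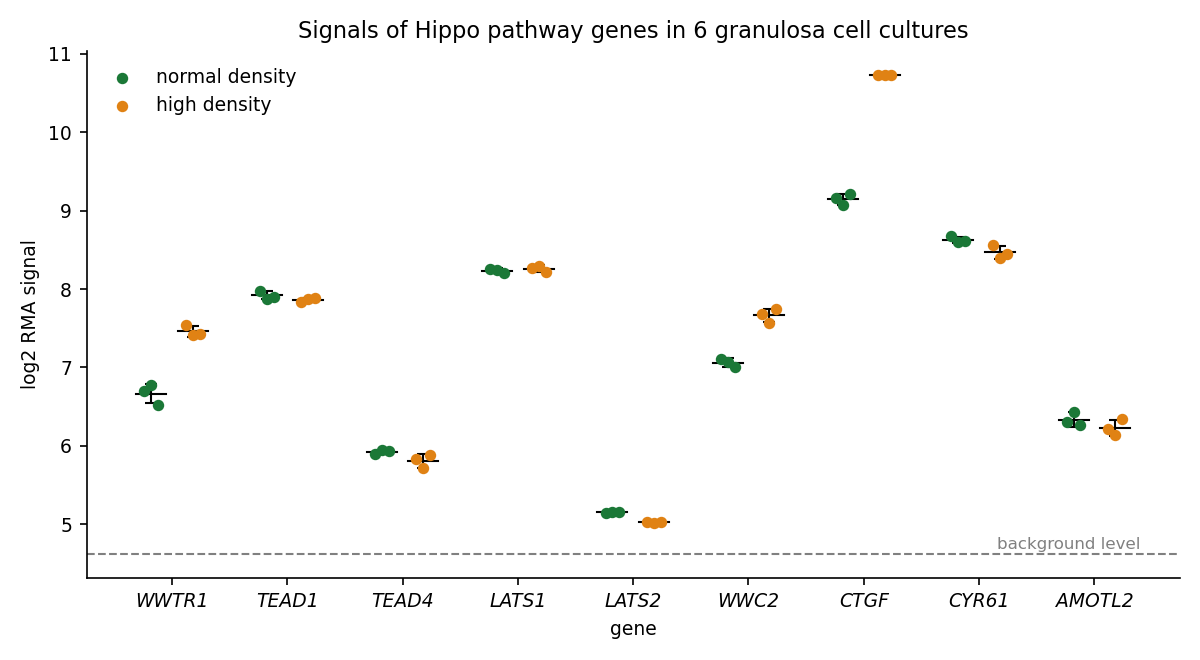
Log2 RMA signal (vertical axis) of the 9 genes (horizontal axis) in each of the 6 cultures, with normal density in green and high density in orange. Horizontal bars are group means, whiskers SD (n = 3) and the dashed line the background level of 4.62; the points of WWTR1, WWC2 and CTGF at high density lie clear above those at normal density, and levels of different genes are not to be compared.

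Of the cofactors, WWTR1 (transcript cluster 12682365) is the one with a measured row. Its log2 signals were 6.70, 6.77 and 6.53 in normal density replicates 1 to 3 and 7.54, 7.41 and 7.42 in high density replicates 1 to 3. Every high density culture lay above every normal density culture, with a gap of 0.64 between the nearest ones. The group means were 6.67 ± 0.13 and 7.46 ± 0.07 (SD, n = 3), and the log2 change was 0.79 (SE 0.09, limma's adjusted p = 9.36e-04), with a 95% interval from 0.59 to 1.0. Leaving out each culture in turn gave log2 changes from 0.72 to 0.85, all called.

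The TEAD factors carry YAP and TAZ to DNA, since the cofactors do not bind it themselves. TEAD1 (12732913) had log2 signals of 7.97, 7.88 and 7.90 at normal density and 7.83, 7.87 and 7.88 at high density. The groups overlapped, and the log2 change was −0.06 (SE 0.07, limma's adjusted p = 0.615), with a 95% interval from −0.21 to 0.10. For TEAD4 (12866766) the log2 signals were 5.89, 5.94 and 5.93 at normal density and 5.83, 5.71 and 5.88 at high density. These groups did not overlap, but the gap between them was 0.01, smaller than the spread within them. The log2 change of TEAD4 was −0.11 (SE 0.07, limma's adjusted p = 0.329), with an interval from −0.28 to 0.06. For neither gene does the interval reach an FC of 1.5. The log2 difference of TEAD4 minus TEAD1 within a culture went from −2.0 ± 0.08 to −2.06 ± 0.09 (SD, n = 3), with overlap between the densities (exact permutation test, two-sided, p = 0.5, adjusted p = 0.5 over 3 pairs).

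The other nuclear partners on a list of pathway genes were TEAD2, TEAD3 and VGLL1 to VGLL4, the VGLL proteins being cofactors that compete with YAP and TAZ for the TEADs. None of these 6 was called. By unadjusted p from limma 1 of them was lower and 1 was higher, and the methods' t-test called none. At any FC 1 of the 6 passed the FDR, beside 19.1% of all transcript clusters. TEAD2 (12755053) came closest, with log2 signals of 7.55, 7.48 and 7.45 at normal density and 7.20, 7.12 and 6.99 at high density, all 3 below the normal density cultures. The log2 change of −0.39 (SE 0.08, limma's adjusted p = 0.0135) passed the FDR but not the FC threshold. VGLL3 was next with a log2 change of 0.33 (SE 0.11, limma's adjusted p = 0.0824). TEAD3, with −0.12, and VGLL4, with −0.17, had limma's adjusted p of 0.486 and 0.167, while the signals of VGLL1 and VGLL2 were below the background level at both densities. WWTR1 was thus the single called gene among the 9 nuclear partners that have a row.

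The kinases LATS1 and LATS2 phosphorylate YAP and TAZ directly. LATS1 (12900997) had log2 signals of 8.26, 8.25 and 8.20 at normal density and 8.27, 8.30 and 8.21 at high density. The groups overlapped, and the log2 change was 0.03 (SE 0.07, limma's adjusted p = 0.821), with a 95% interval from −0.13 to 0.18. After the arrays were brought to a common median it was −0.017, so no direction can be given.

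LATS2 (12709303), itself a known target of YAP and TAZ, had log2 signals of 5.15, 5.16 and 5.15 at normal density and 5.02, 5.01 and 5.03 at high density. The cultures of each density were almost equal and the high density ones all lower, by a gap of 0.11. The SDs of 0.005 and 0.009 (n = 3) ranked in the lowest 0.538% and 0.613% of all transcript clusters. The test that is used therefore decides how LATS2 reads. limma, which draws each variance toward that of the whole table, gave a log2 change of −0.13 (SE 0.06, adjusted p = 0.204), and the methods' t-test, which uses the gene's own variance alone, an adjusted p of 0.00449. Under neither was it called, since the FC was 1.09 in size. The difference of LATS2 minus LATS1 went from −3.08 ± 0.03 to −3.24 ± 0.05 (SD, n = 3) without overlap between the densities (exact permutation test, two-sided, p = 0.1, which is the lowest that 3 cultures against 3 allow, adjusted p = 0.15 over 3 pairs).

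Of the other kinase core genes none was called in either direction by limma or by the methods' t-test. By unadjusted p from limma 2 of these 7 were higher and 3 lower. Of these, 2 passed the FDR below the FC threshold, both lower at high density. At any FC 19.1% of all transcript clusters passed it. STK4, also known as MST1, had a log2 change of −0.37 (SE 0.08, limma's adjusted p = 0.0154), and STK38, a kinase related to LATS, of −0.32 (SE 0.07, limma's adjusted p = 0.0137). STK3 had −0.27, the scaffold SAV1 0.25, MOB1A 0.11, MOB1B −0.09 and STK38L 0.30, with limma's adjusted p between 0.0814 and 0.480. The log2 changes of the 9 core genes lay between −0.37 and 0.30 with a median of −0.09.

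WWC2 (12824282) encodes a scaffold of the KIBRA family that brings LATS kinases to their activators. The cultures gave log2 signals of 7.11, 7.06 and 7.01 at normal density and 7.68, 7.57 and 7.74 at high density. The groups were 0.46 apart at the nearest cultures. The means were 7.06 ± 0.05 and 7.66 ± 0.09 (SD, n = 3), and the log2 change was 0.60 (SE 0.08, limma's adjusted p = 0.00163). Its 95% interval, 0.43 to 0.78, contains the FC threshold, and the call depended on single cultures. WWC2 was not called without normal density replicate 3 (log2 change 0.58) or without high density replicate 3 (0.56), nor after the arrays were brought to a common median (0.56), although the adjusted p stayed at or below 0.0118 in each case.

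Neither of the other KIBRA family genes was called up. WWC1 (12879465), KIBRA itself, fell from log2 signals of 5.82, 5.90 and 5.96 to 5.27, 5.08 and 4.99, without overlap. Its log2 change was −0.78 (SE 0.09, limma's adjusted p = 0.00121), an FC of 1.72 in size, and it stayed called whichever culture was left out. WWC3 had a log2 change of −0.07 (SE 0.07, limma's adjusted p = 0.561). The log2 difference of WWC2 minus WWC1 went from 1.16 ± 0.12 to 2.55 ± 0.18 (SD, n = 3), a description, as the pair was chosen after its values were seen.

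**Figure D2:**
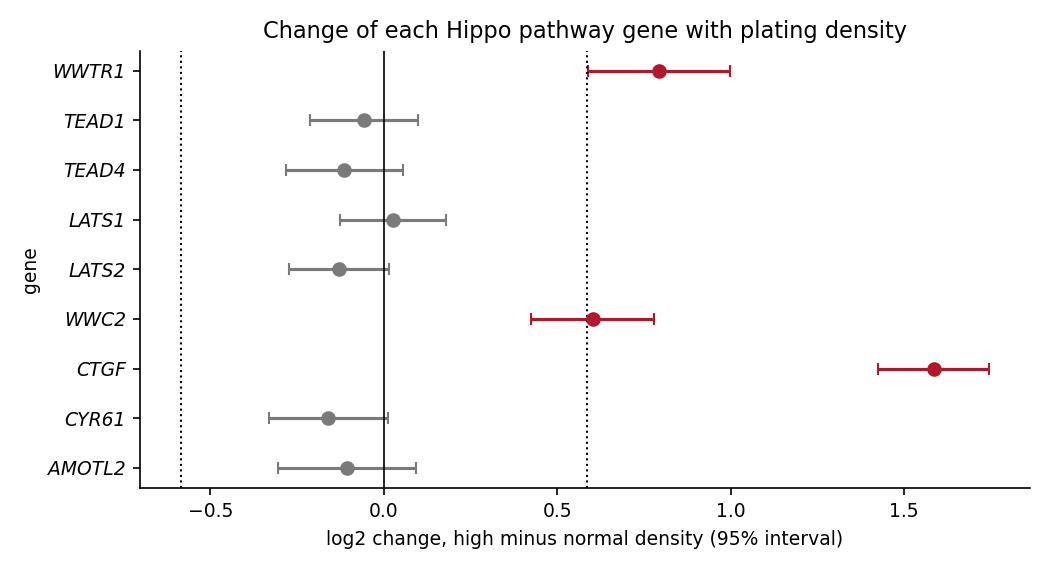
Log2 change from normal to high density (horizontal axis) of the 9 genes (vertical axis), with 95% intervals from limma; dotted lines mark an FC of 1.5, red points were called up and grey points not called. The interval of CTGF lies far above the right dotted line, that of WWTR1 starts at it, that of WWC2 spans it, and those of the other 6 genes span 0.

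The other 20 upstream activators on the list are adaptors, kinases and other proteins that act upstream of YAP and TAZ. Of these 20, 1 was called up and 1 down, beside 3.97% and 3.51% of all transcript clusters. Among those above the background level it was 6.97% and 5.99%. The gene called down is WWC1. MAP4K2 (12834051), a kinase that can activate LATS in place of STK3 and STK4, rose from log2 signals of 6.09, 6.22 and 6.03 to 7.27, 6.86 and 6.98. Its log2 change was 0.92 (SE 0.12, limma's adjusted p = 0.00173). The related kinase MAP4K4, with −0.52 (SE 0.08, limma's adjusted p = 0.00403), and TAOK2, with −0.52 (SE 0.07, limma's adjusted p = 0.00267), passed the FDR but not the FC threshold. NF2, the adaptor merlin, had a log2 change of 0.31 (SE 0.08, limma's adjusted p = 0.0373), also below an FC of 1.5. Without the FC threshold 5 of these genes were higher and 5 lower.

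Of 13 genes whose proteins hold the kinases back, 1 was called down and 0 up, beside 3.51% and 3.97% of all transcript clusters. Among those above the background level, as 12 of the 13 were at both densities, it was 5.99% and 6.97%. By unadjusted p from limma 4 were lower and 0 higher, and the methods' t-test called 1 down and 0 up. The share of all transcript clusters below that unadjusted p was not computed. At any FC 1 of the 13 passed the FDR, beside 19.1% of all transcript clusters. AJUBA (12689774), a LIM protein that binds and inhibits LATS, fell from log2 signals of 7.03, 7.03 and 7.13 to 6.05, 6.10 and 6.30. All high density cultures were lower by a wide margin, with a log2 change of −0.92 (SE 0.09, limma's adjusted p = 5.06e-04). Its relatives LIMD1 and WTIP had −0.28 (limma's adjusted p = 0.110) and 0.12 (limma's adjusted p = 0.356).

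Signals from cell contacts enter through polarity proteins and through the large cadherins FAT4 and DCHS1, which bind each other between neighbouring cells. Of the 20 transcript clusters on this list, 2 were called up and 0 down, and these 2 were that pair. Over all transcript clusters 3.97% were called up and 3.51% down, and among those above the background level 6.97% and 5.99%. By unadjusted p from limma 5 of the 20 were higher and 4 lower, and the methods' t-test called 2 up and 0 down. At any FC 3 higher and 2 lower ones passed the FDR, beside 19.1% of all transcript clusters. DCHS1 (12728040) rose from log2 signals of 6.93, 6.87 and 6.59 to 7.93, 7.66 and 7.86, a log2 change of 1.02 (SE 0.12, limma's adjusted p = 0.00103). FAT4 (12748265) rose from 4.97, 5.01 and 4.95 to 5.74, 5.66 and 5.69, with a log2 change of 0.72 (SE 0.07, limma's adjusted p = 4.25e-04). Neither pair of groups overlapped. FJX1, whose fly counterpart modifies cadherins of this kind and which is listed among the targets of YAP and TAZ, was called up as well. The junction genes CDH1, CDH2, TJP1, CTNNA1 and FAT1 were not called, with log2 changes between −0.10 and 0.17.

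**Figure D3:**
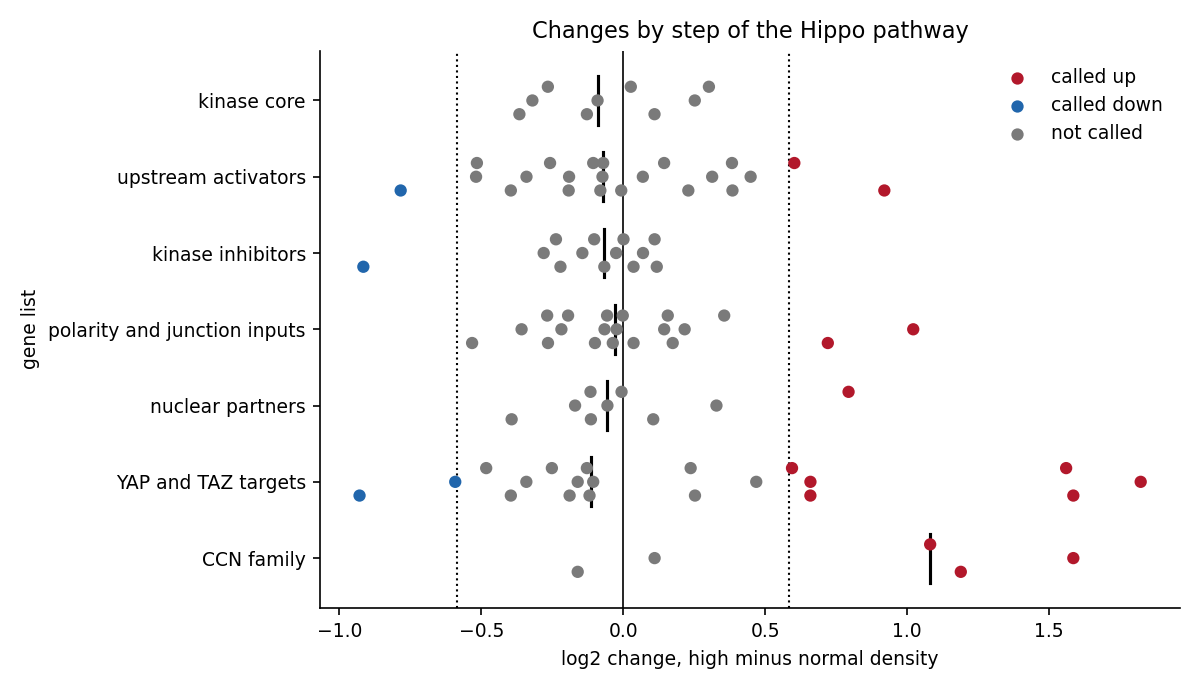
Log2 change (horizontal axis) of each transcript cluster on 7 lists of pathway genes (vertical axis), members included; black bars are list medians, dotted lines an FC of 1.5, red points called up, blue points called down and grey points not called. The medians of the first 6 lists lie between −0.11 and −0.03, and called points are found on 6 of the 7 lists, all except the kinase core.

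CTGF (12899445), named CCN2 in RefSeq (assembly ARS-UCD2.0), encodes a secreted protein of the extracellular matrix and is among the most used readouts of YAP and TAZ. The cultures gave log2 signals of 9.16, 9.07 and 9.21 at normal density and 10.73, 10.74 and 10.73 at high density. The high density cultures were nearly equal, with an SD of 0.002 (n = 3), and 1.52 above the highest normal density culture. The means were 9.15 ± 0.07 and 10.73, the log2 change was 1.59 (SE 0.07, limma's adjusted p = 2.06e-05) and its 95% interval ran from 1.42 to 1.75. The rise ranked at position 149 of all transcript clusters, and it was between 1.55 and 1.62 with each culture left out.

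CYR61 (12843892), named CCN1 in RefSeq, is the closest relative of CTGF among these genes and an equally common readout. Its log2 signals were 8.67, 8.60 and 8.62 at normal density and 8.56, 8.39 and 8.45 at high density. The high density cultures lay lower by a gap of 0.04. The log2 change of −0.16 (SE 0.07, limma's adjusted p = 0.181) did not pass the test, and its 95% interval from −0.33 to 0.01 holds no rise as large as an FC of 1.5. The log2 difference of CTGF minus CYR61 went from 0.52 ± 0.07 to 2.26 ± 0.09 (SD, n = 3). CTGF thus changed by 1.75 more than CYR61 on the log2 scale, without overlap (exact permutation test, two-sided, p = 0.1, again the lowest possible, adjusted p = 0.15 over 3 pairs).

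AMOTL2 (12681779) encodes a junction protein that retains YAP in the cytoplasm and is itself a target. In the cultures the log2 signals were 6.31, 6.43 and 6.26 at normal density and 6.21, 6.13 and 6.34 at high density. The groups overlapped, and the log2 change was −0.11 (SE 0.09, limma's adjusted p = 0.444), with an interval from −0.30 to 0.09. Its relatives AMOT and AMOTL1 had −0.34 (limma's adjusted p = 0.0536) and −0.19 (limma's adjusted p = 0.141).

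Of the 3 targets among the members 1 rose and none fell, while a wider list of 22 targets shared by many cell types gave both. Of its 20 genes with a row 6 were called up and 2 down, with a median log2 change of −0.11. Over all transcript clusters 3.97% were called up and 3.51% down. Among those above the background level, as 19 of the 20 were at both densities, it was 6.97% and 5.99%. Without the members 5 of 16 were up and 2 down, and the median was 0.06, of the opposite sign. Without the FC threshold 6 of these 16 were higher and 6 lower.

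The other rises were led by IGFBP3 (12849044), a binding protein for insulin-like growth factors. It had log2 signals of 4.91, 4.78 and 4.68 at normal density and 6.64, 6.53 and 6.66 at high density, a log2 change of 1.82 (SE 0.08, limma's adjusted p = 2.34e-05). F3 (12835715), tissue factor, rose from 5.77, 5.76 and 5.67 to 7.25, 7.61 and 7.01, with a log2 change of 1.56 (SE 0.14, limma's adjusted p = 4.50e-04). In both genes every high density culture exceeded every normal density culture by far. FJX1 and the stress gene GADD45A each had a log2 change of 0.66 (limma's adjusted p = 8.14e-04 and 0.00108). The kinase gene NUAK2, with 0.59 (SE 0.14, limma's adjusted p = 0.0235), had signals below the background level in all cultures but high density replicate 1. NUAK2 lost its call in 9 of 14 alternatives. Among these were the methods' t-test (adjusted p = 0.111), an FDR of 0.01, arrays brought to a common median (log2 change 0.55) and a second quantile normalization (0.55). It was also lost without normal density replicate 1, 2 or 3 (log2 change 0.55, 0.61 and 0.62) and without high density replicate 1 or 3 (0.47 and 0.57).

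ANKRD1 (12821871), a muscle ankyrin repeat protein often read together with CTGF and CYR61, moved the other way. Its log2 signals were 9.38, 9.30 and 9.41 at normal density and 8.41, 8.60 and 8.30 at high density, so all 3 high density cultures were lower. The log2 change was −0.93 (SE 0.09, limma's adjusted p = 5.92e-04), an FC of 1.90 in size, and no single culture decided the call. DOCK5 (12889361), an activator of the GTPase Rac, had a log2 change of −0.59 (SE 0.07, limma's adjusted p = 0.00154), close to the FC threshold, and it was not called without normal density replicate 1 or 2 (−0.57 and −0.58) or high density replicate 3 (−0.55). The difference of CTGF minus ANKRD1 went from −0.22 ± 0.02 to 2.30 ± 0.15 (SD, n = 3). This pair was chosen after its values were seen and was not tested.

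**Figure D4:**
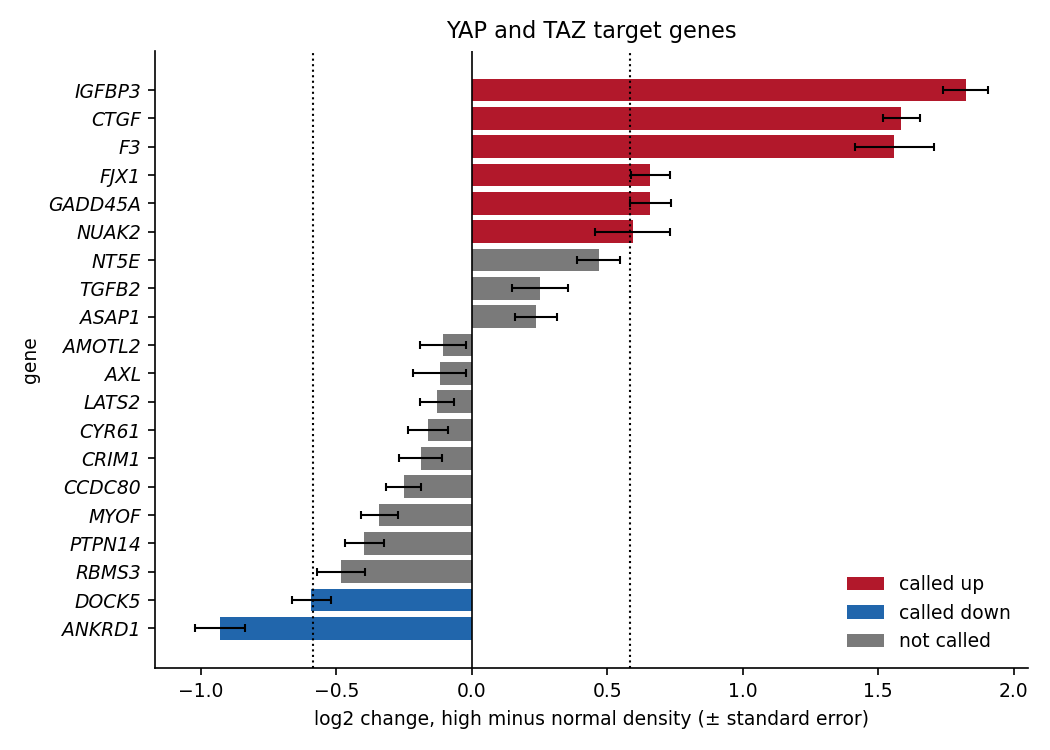
Log2 change (horizontal axis, bars from 0, whiskers standard errors from limma) of the 20 target genes of YAP and TAZ with a row (vertical axis); dotted lines mark an FC of 1.5. The 6 red bars to the right, from NUAK2 at 0.59 to IGFBP3 at 1.82, were called up, and the blue bars of DOCK5 and ANKRD1 to the left were called down.

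Within the CCN family of matrix proteins, CTGF, NOV (CCN3) and WISP1 (CCN4) were called up, while CYR61 and WISP2 were not called. These were 3 of the 5 CCN genes with a row, beside 3.97% of all transcript clusters called up and 6.97% of those above the background level. NOV (12724433) had log2 signals of 4.26, 4.10 and 4.05 at normal density, all under the background level, and 5.28, 5.33 and 5.37 at high density. Its log2 change was 1.19 (SE 0.08, limma's adjusted p = 1.14e-04), a size limited by that level. WISP1 (12725851) had 4.88, 4.88 and 4.21 at normal density and 5.88, 5.49 and 5.83 at high density. Normal density replicate 3 stood low, under the background level. Its log2 change was 1.08 (SE 0.20, limma's adjusted p = 0.00881), but the methods' t-test gave an adjusted p of 0.0762.

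Over all 7 lists without the members, 10 of 84 transcript clusters were called up and 4 down, 16.7% in all beside 7.49% of the table. Among those above the background level it was 17.6% of 74, beside 13.0%. The lists were written with earlier results of these data known, and the median log2 change of their genes was −0.03.

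Markers of fibroblasts and mesenchyme, cells known to make CTGF, included genes that were called up too. All 10 were above the background level at both densities and 4 were called up, COL1A1, PDGFRB, THY1 and ACTA2. Their summed linear signal was between 7721 and 7876 at normal density and between 8559 and 8742 at high density. The other 6 were not called, but COL1A2, COL3A1 and PDGFRA, with log2 changes of 0.38, 0.39 and 0.32, passed the FDR, so that 7 of 10 did. The summed linear signal of these 6 was between 7365 and 7511 at normal density and between 7749 and 8001 at high density, without overlap. LUM, POSTN and DCN had the highest signals and weigh most in both sums, with log2 changes of 0.01, 0.04 and 0.17. All 10 markers had positive log2 changes, the lowest 0.01 for LUM. Their part in the rises of CTGF and WWTR1 was not tested, and in RNA of whole cultures more cells of one type and more RNA per cell cannot be told apart. For the other cell types, 1 of 5 theca markers (INSL3) was called up, with CYP17A1 below the background level, and 1 of 10 endothelial markers (CLDN5), with PECAM1 and CDH5 below it. All 10 leukocyte markers lay at or below it. Of the red cell markers 1 of 8 (HBA) was called up and the other 7 lay at or below it. Of 11 surface epithelium markers 3 (KRT8, KRT18 and UPK1B) were called up and 4 passed the FDR. All 11 had positive log2 changes, as the fibroblast and mesenchyme markers did, though 5 of the 11 lay at or below the background level at both densities. Summed linear signals ranged from 304 to 337 and from 658 to 769 for theca, from 149 to 151 and from 312 to 349 for endothelium, from 97.5 to 100.4 and from 94.8 to 112 for leukocytes, from 64.5 to 68.9 and from 629 to 944 for red cells and from 923 to 968 and from 2175 to 2261 for surface epithelium, at normal and high density. Most of these differences came from the called genes. Without them the sums ranged from 162 to 183 and from 178 to 184 for theca, from 121 to 127 and from 130.2 to 147 for endothelium, from 53.8 to 57.0 and from 57.1 to 65.5 for red cells and from 167 to 177 and from 191 to 204 for surface epithelium.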

How the data were processed

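Arrays of 6 GC cultures were analysed, 3 per density. The authors ran RMA (background reduction, normalization and gene-level summary) in Affymetrix Expression Console, and the deposited values are its log2 signals, 1 per transcript cluster and culture. Their further analysis used Transcriptome Analysis Console 3.0. The genome build is not given in the sources used here. RMA evens out the arrays, so a shift shared by all genes cannot be seen.

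Differences between densities were tested over all 26773 transcript clusters by moderated linear models without covariates (limma 3.58.1, functions lmFit and eBayes, under R 4.3.3). Thresholds followed the methods, with 1.5 for FC and 0.05 for both p and FDR. Pairs of genes were compared by exact permutation. Alternatives were the methods' t-test, a variance trend, weights per array, a block by replicate number, other scalings of the arrays, a filter at the background level, other thresholds and leaving out each culture. The number of arrays limits the precision.

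The members and the lists of pathway genes and markers were chosen with earlier results of these data known. The lists come from general knowledge. Named are all members, kinase core genes and nuclear partners, and of each other list the called genes, up to the 4 largest rises and 4 largest falls. Other genes named were chosen after their values were seen. RefSeq names matched all 10 listed genes. Of 87 other pathway genes 82 had a row. Plots came from Python 3.11.15 and matplotlib 3.10.9. No sequences were used here.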

Additional observations from a re-analysis of the deposited data

How the results depend on the processing

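The calls of WWTR1 and CTGF held in all 15 alternatives, with log2 changes of 0.72 to 0.85 and 1.54 to 1.62. The count of members called up was 2 or 3, as WWC2 was lost in 3 of them, and that of members called down 0 in all. Leaving out each culture gave 2 to 3 and 0. The replicate number as a block gave 3 up and 0 down, and 1066 up and 954 down over all transcript clusters. Deviations of same-numbered cultures correlated at 0.05, −0.05 and −0.04, so the numbers were not taken as pairs, and the block changed no call of a member or of a named pathway gene. The log2 changes of LATS1 and VGLL2, both close to 0, turned sign. LATS1 had −0.017 after the arrays were brought to a common median. VGLL2 ranged from −0.057 to 0.072 with each culture left out, positive without replicate 1 of normal (0.072) or of high density (0.022). Without the FC threshold, besides the members, the lists counted 0 kinase core genes up and 2 down, 5 upstream activators up and 5 down, and 0 kinase inhibitors up and 1 down. Polarity and junction inputs counted 3 up and 2 down, nuclear partners 0 up and 1 down, targets 6 up and 6 down, and the CCN family 2 up and 0 down. Over all transcript clusters the counts were 2314 up and 2792 down. The polarity and junction count down was 1 with array weights and 0 to 1 with each culture left out (1 without high density replicate 2). The targets counted 1 down with a second quantile normalization, where DOCK5 was lost, and 1 to 2 with each culture left out. The CCN family counted 1 up by the methods' t-test. The differences CTGF minus CYR61, LATS2 minus LATS1 and TEAD4 minus TEAD1 were 1.71 to 1.79, −0.18 to −0.13 and −0.10 to −0.01 with each culture left out. Averaging the transcript clusters of a symbol was not run, as each member has 1, and WWTR1 minus YAP1 could not be computed. Signals near or below the background level limit the changes of NOV, NUAK2, VGLL1 and VGLL2. At normal density those of IGFBP3 (mean 4.79) and WISP1 (mean 4.65) lay close to it too.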
